A study of Mus musculus with 9 samples.

Results

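The non-collagen matrix glycoproteins and proteoglycans of the kidney were followed through a reversible obstruction of the ureter. The set held 38 genes, chosen by symbol with earlier results of these data known, so the counts below describe a chosen list. Array probes were tied to these symbols through their RefSeq accession, only probes flagged as above background on 3 or more of the 9 arrays were kept, and the brightest of them stood for its gene. This gave 37 of the 38 genes, among 17751 genes tested in all; Lox was not analysed here. Total RNA of the whole left kidney had been hybridised in a single colour to Agilent mouse arrays.

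The mice of every group were males of 10 weeks on a mixed strain background with the genotype ISAM (Epo–/–::3.3K-Epo3'-Tg458), a line that lacks the endogenous erythropoietin gene and is used as a model of erythropoietin-deficiency anaemia, so the controls carried the anaemia genotype too. In the clip group (3 arrays) a vascular clip had closed the left ureter for 2 days. In the release group (3 arrays) the clip had been in place for 2 days and the kidney was taken 12 days after its removal. The control arm (3 arrays) was made up of 2 mice given sham treatment and 1 left untreated. When these control kidneys were collected is not stated in the labels, so whether they match the other arms in time after surgery is unknown. Nothing in the labels says that replicates of a group were prepared apart from each other, so the p-values measure the spread between these samples, which may be technical.

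Matrix glycoproteins and proteoglycans are made in the kidney mainly by interstitial fibroblasts, pericytes, vascular smooth muscle and, for the basement membranes, by epithelium and endothelium. Fibronectin forms the provisional network on which other matrix proteins assemble, fibrillin microfibrils carry elastin, fibulins and latent TGF-beta binding proteins, lysyl oxidases cross-link the fibres, and small leucine-rich proteoglycans coat collagen fibrils and set their spacing. Matricellular proteins such as tenascin-C, periostin and the thrombospondins lend the tissue little strength and act mostly on cells, and ureteral obstruction is a standard model in which such genes are studied.

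A level is the log2 of a probe's background-subtracted intensity over the 75th percentile of its array, so that 0 is the 75th percentile, and a difference of 1 is a 2-fold change. Differences are given as clip minus control, release minus control or release minus clip, with the standard error of a limma fit over all 9 arrays (n = 3 in each arm). The p-values are limma's, adjusted by the Benjamini-Hochberg (BH) method over all 17751 genes, and "rose" and "fell" are kept for an adjusted p below 0.05. The level of 1 probe is not set against that of another. The 75th percentile signal was 320 to 439 on the 9 arrays, 52.1% to 57.5% of probes were well above background, and 0 spots were saturated. Each of the 3 slides held 1 array of each arm, and the third slide, which carried the untreated mouse, was scanned on the other of 2 dates. The number of arrays limits the precision of every value.

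During obstruction, 24 of the 37 genes rose and 2 fell, and 11 did not pass the test. Of all 17751 genes, 21.3% rose and 27.5% fell. The median difference was 1.0 over the 37 genes and -0.09 over all genes tested. All 3 clip arrays lay above all 3 control arrays for 27 of the 37 genes, against 25.4% of all genes, and below them for 3, against 33.2%. Fibronectin, tenascin-C, periostin, Ltbp2, versican and the fibrillin microfibril genes were among the genes that rose, and the small proteoglycans Fmod and Ogn were those that fell. Vcan, Mfap5 and Ltbp2 were not well above background on any control array, so a gene of that kind could enter the set only by being higher elsewhere. The other 34 genes gave 21 rises and 2 falls. The 33 genes well above background on all 9 arrays also gave 21 rises and 2 falls, against 20.6% and 30.7% of the 15128 such genes.

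**Figure D1:**
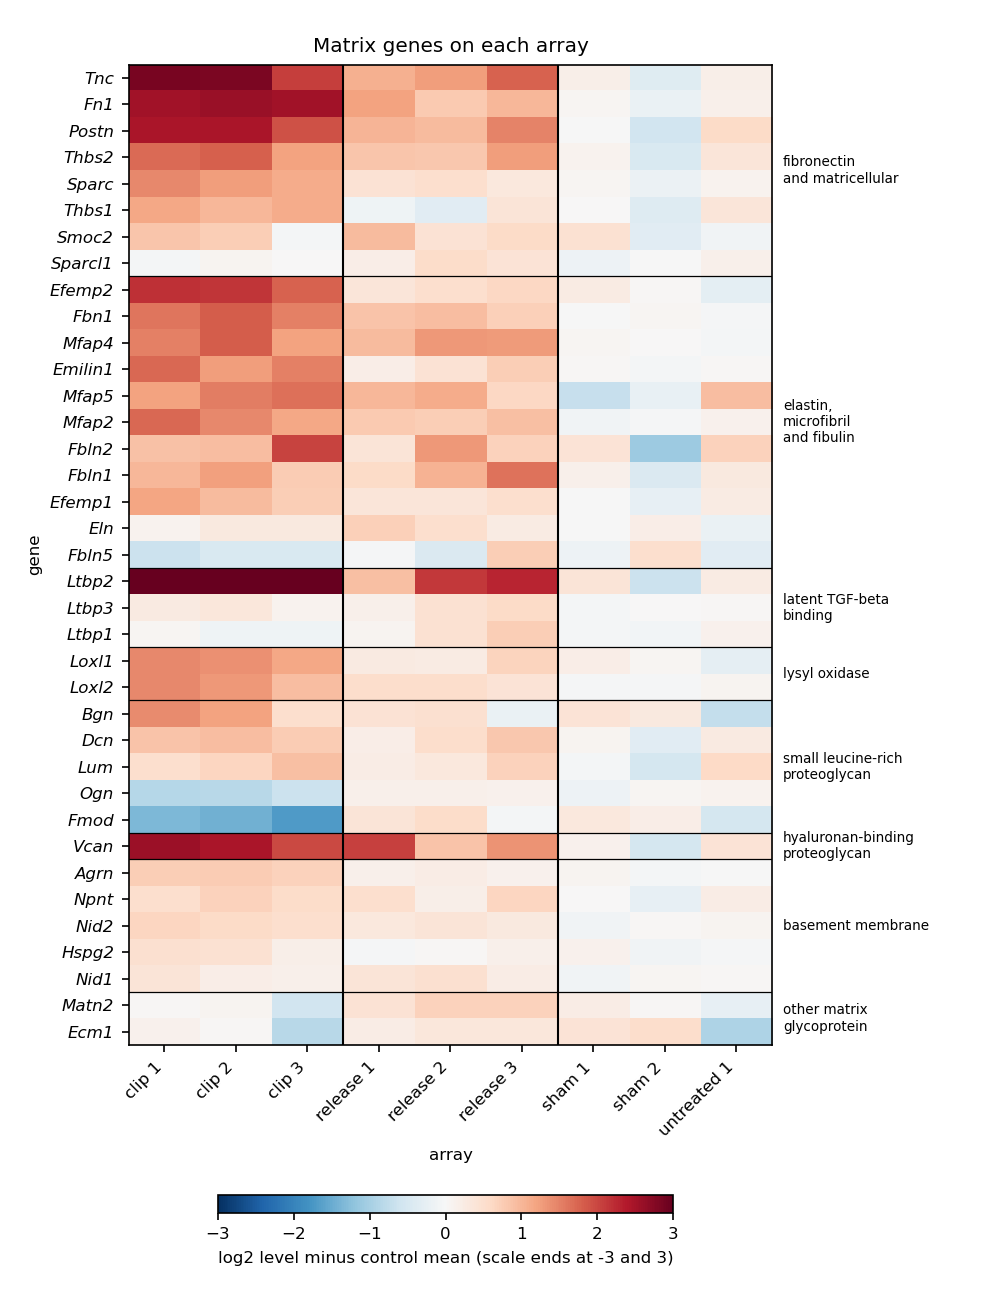
Level of each of the 37 genes (rows, grouped by role) on each of the 9 arrays (columns), as the log2 level minus the mean of the 3 control arrays; the colour scale ends at -3 and 3. Red fills most rows of the 3 clip columns, paler red most rows of the release columns, and blue marks Fmod and Ogn in the clip columns.

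At 12 days after release most of these genes lay between the other arms. The release mean lay between the clip and control means for 22 of the 24 genes that had risen in clip kidneys, above the clip mean for 1 (Fbln1) and below the control mean for 1 (Thbs1). Release minus clip was 0.08 ± 0.29 for Fbln1, and release minus control was -0.03 ± 0.22 for Thbs1. On the other usable probes of both genes the release mean lay between the other arms. Those 24 genes were taken by their clip and control values on these same arrays. The like share among all genes that rose was not counted, so this position is not shown to be particular to the set. Against control, 5 genes were still higher (Fn1, Tnc, Fbn1, Mfap2 and Mfap4) and 0 were lower, where 1.46% of all genes were higher and 0.372% lower. At an unadjusted p below 0.05, limma gave 27 of the 37 genes, against 21.5% of all genes. The median difference was 0.46 over the 37 genes and -0.01 over all genes tested. All release arrays lay above all control arrays for 24 of the 37 genes and below them for 0, against 13.6% of all genes above and 13.6% below. The 37 genes include Vcan and Mfap5, which were not well above background on any release or control array. Among the 34 genes well above background on at least 1 control array, 22 lay above and 0 below, with a median difference of 0.44. The clip and release comparisons with control use the same 3 control arrays. Against clip, 14 genes were lower in release kidneys and 5 higher (Fmod, Ogn, Matn2, Ltbp1 and Sparcl1), where 17.4% of all genes were lower and 23.6% higher.

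The 5 rises after release were lost in several settings. None of the 5 passed the test when sham 1, sham 2 or release 2 was left out, with normexp background correction, without the filter on dim probes, or when the release and control arrays were fitted alone, and the count was 1 without release 3 and 3 without clip 2. Their differences were positive in these settings, at 0.51 to 1.46. With the mean of each gene's probes the count was 3, and the Fbn1 difference turned to -0.25 (adjusted p = 0.84). With slide as a block the count stayed at 5, with Tnc lost and Vcan, which was not well above background in either arm, gained. Of all genes 6.54% were then called in either direction, against 1.83% in the main fit, so the contrast with all genes was smaller. Within each slide, taken alone, 31 of the 37 genes were higher in the release than in the control array on all 3 slides, against 24.9% of all genes. Among the 34 genes well above background on at least 1 control array, 29 were higher on all 3 slides.

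**Figure D2:**
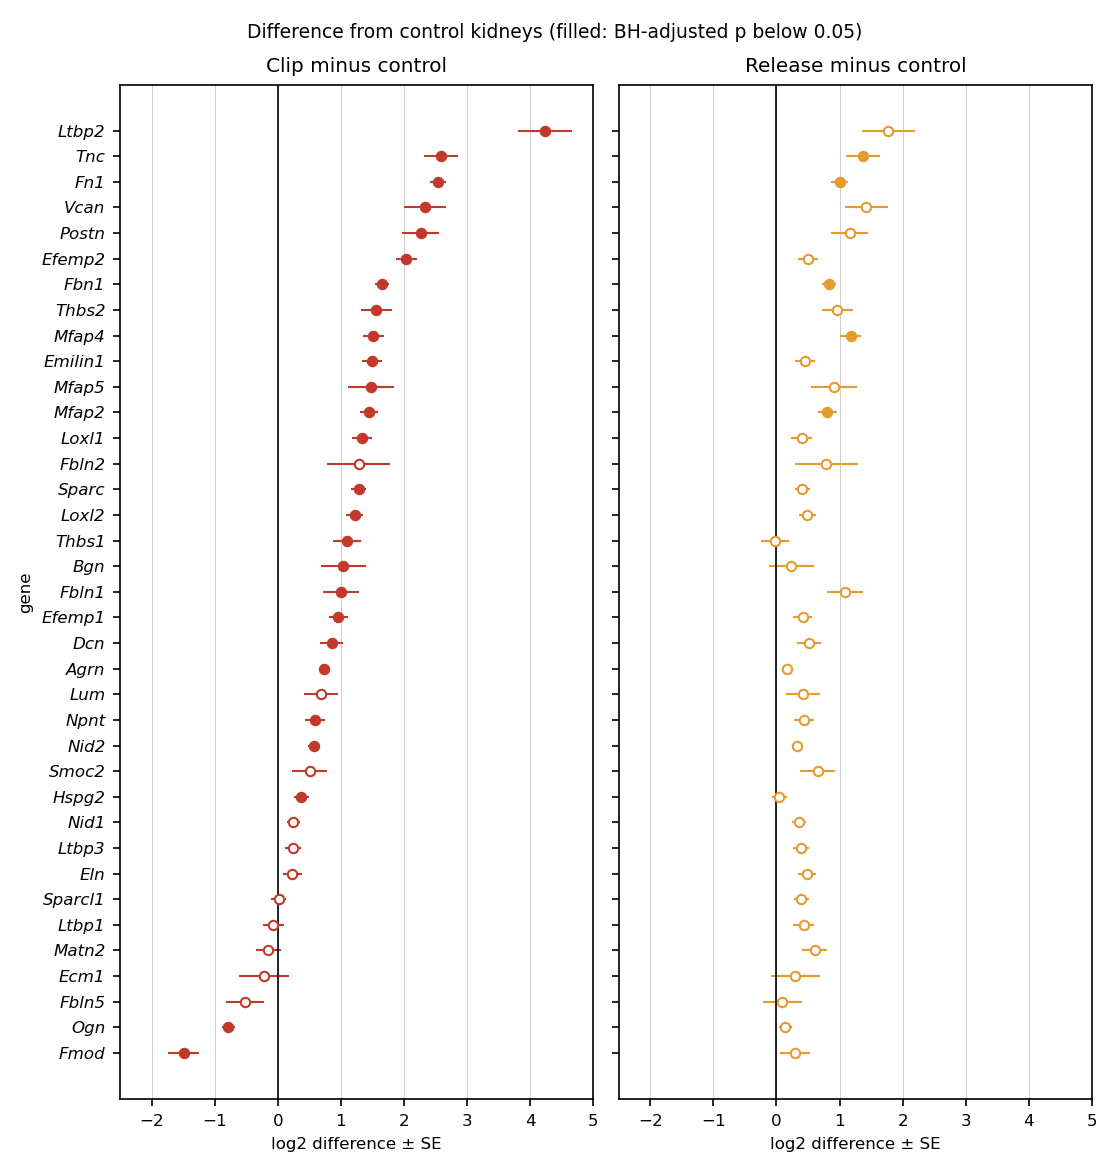
Log2 difference with its standard error for the 37 genes, clip minus control on the left and release minus control on the right, in the order of the clip difference (n = 3 arrays an arm). Filled points have a BH-adjusted p below 0.05; on the left 24 filled points lie above 0 and 2 below, and on the right the 5 filled points lie above 0.

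The labelled tissue was checked against markers of its cells. All 6 proximal tubule, all 5 thick limb and distal tubule, all 6 collecting duct and all 5 podocyte markers were measured. The arms differed in these markers. In clip kidneys all 6 proximal tubule markers, all 5 thick limb markers, 4 of 6 collecting duct markers and 3 of 5 podocyte markers fell. The summed level of the proximal tubule list (log2 of the sum) was 6.77 to 7.49 in clip, 8.63 to 8.96 in release and 8.88 to 9.13 in control kidneys. Among stromal markers, 5 of 10 fibroblast and pericyte genes rose and 1 fell, with Thy1 up by 2.83 ± 0.23 (adjusted p = 2.7e-05) and Rgs5, a pericyte gene, at -0.95 ± 0.13 (adjusted p = 5.2e-04). The summed level of that list was 5.28 to 5.53 in clip, 5.13 to 5.33 in release and 4.62 to 4.85 in control kidneys. Of the smooth muscle and myofibroblast genes 5 of 7 rose, and their summed level was 6.36 to 7.12 in clip, 4.66 to 4.73 in release and 4.24 to 4.74 in control kidneys.

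Of the 8 measured macrophage and monocyte markers, 7 rose in clip kidneys, and Cd68 was not well above background on 3 arrays. Their summed level was 4.37 to 4.48 in clip, 3.24 to 3.51 in release and 2.60 to 2.93 in control kidneys. After release, 2 fibroblast and pericyte markers, Pdgfra and Pdgfrb, and 2 macrophage markers were higher than in control, and 0 of the smooth muscle markers. These calls ended when the release and control arrays were fitted alone, where 0 of all genes were called. Of the 7 endothelial markers 1 rose and 2 fell in clip kidneys, and their summed level was 5.27 to 5.53 in clip, 5.66 to 5.80 in release and 5.48 to 5.59 in control kidneys. Of 5 urothelial markers 1 rose, as did 1 of 2 measured mesothelial markers, and the summed urothelial level was 1.36 to 2.34 in clip, 0.94 to 1.26 in release and -0.11 to 0.97 in control kidneys. The mesothelial sum was 0.01 to 0.13 in clip, -1.51 to -0.80 in release and -2.45 to -1.54 in control kidneys. Of the skeletal muscle markers 1 rose and 1 fell, and 0 of 4 measured adipocyte and 0 of 2 measured adrenal markers passed. Of 5 reference genes 2 fell. Ckm, Myh4, Lep, Lrrn4, Cyp11a1, Cyp11b1 and Cyp21a1 were not well above background on 3 arrays. In whole kidney RNA fewer cells of a type and less RNA per cell cannot be told apart, and the part of these shifts in the results on matrix genes was not tested.

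Promoters of some members that rose and some that fell are shown, printed 5′ to 3′ along the gene's strand with the letters of 5 short motifs in capitals. RefSeq's table (GRCm38.p6) held 24 of the 38 genes with 34 start sites, each as 250 bases before the start and 50 after it, and both strands were searched. The TATA box was searched as TATAAA, which 13.6% of all 32851 promoters in the table hold. For the AP-1 element the search letters were TGANTCA, held by 7.81%. The SMAD half-site was searched as CAGAC, held by 49.6%. The GC box was taken as GGGCGG, held by 35.7%. The CCAAT box was taken as its own letters, held by 37.4%. Matches may overlap, as the TATA matches on both strands do in Ogn. Tnc (chr4:64046966-64047265, minus strand, the first of its 2 starts), Ltbp2 (chr12:84876442-84876741, minus strand) and Fbn1 (chr2:125506389-125506688, minus strand) rose in clip kidneys. Fmod (chr1:134037004-134037303, plus strand) and Ogn (chr13:49607765-49608064, plus strand) fell.
Tnc: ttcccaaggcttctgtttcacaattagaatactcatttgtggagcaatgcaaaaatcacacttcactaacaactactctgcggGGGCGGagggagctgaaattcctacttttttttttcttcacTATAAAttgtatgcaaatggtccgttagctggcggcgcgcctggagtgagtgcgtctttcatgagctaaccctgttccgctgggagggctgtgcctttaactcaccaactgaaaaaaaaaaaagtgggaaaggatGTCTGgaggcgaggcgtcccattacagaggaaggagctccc
Ltbp2: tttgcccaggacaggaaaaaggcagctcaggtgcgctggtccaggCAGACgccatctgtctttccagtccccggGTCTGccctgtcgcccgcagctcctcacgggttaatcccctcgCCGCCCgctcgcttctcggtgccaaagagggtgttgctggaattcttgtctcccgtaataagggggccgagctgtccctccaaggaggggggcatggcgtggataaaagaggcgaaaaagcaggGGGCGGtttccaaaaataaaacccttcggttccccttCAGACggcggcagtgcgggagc
Fbn1: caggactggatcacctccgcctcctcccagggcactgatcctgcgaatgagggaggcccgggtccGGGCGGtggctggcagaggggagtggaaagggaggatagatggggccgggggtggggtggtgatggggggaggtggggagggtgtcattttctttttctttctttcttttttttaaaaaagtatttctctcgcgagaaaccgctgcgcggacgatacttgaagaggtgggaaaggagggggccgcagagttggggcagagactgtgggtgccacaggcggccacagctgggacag
Fmod: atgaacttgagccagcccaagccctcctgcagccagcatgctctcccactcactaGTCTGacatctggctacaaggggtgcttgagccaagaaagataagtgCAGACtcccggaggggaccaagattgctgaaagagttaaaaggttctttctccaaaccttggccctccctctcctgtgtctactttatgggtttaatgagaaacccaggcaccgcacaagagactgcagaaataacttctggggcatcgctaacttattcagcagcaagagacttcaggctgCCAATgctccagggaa
Ogn: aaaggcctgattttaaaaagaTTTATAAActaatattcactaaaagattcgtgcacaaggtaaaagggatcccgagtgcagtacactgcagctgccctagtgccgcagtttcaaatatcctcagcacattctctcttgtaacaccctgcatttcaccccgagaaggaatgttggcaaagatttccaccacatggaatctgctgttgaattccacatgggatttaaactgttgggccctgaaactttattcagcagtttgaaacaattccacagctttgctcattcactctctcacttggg

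Tnc held TATA letters (from base 125), a GC box and a SMAD half-site in this window, Ltbp2 held 3 SMAD half-sites and 2 GC boxes, and Fbn1 held a GC box alone. Fmod held 2 SMAD half-sites and a CCAAT box, and Ogn held TATA matches (from bases 22 and 24) and none of the other letters. Bases are counted from the 5′ end, and the start follows base 250 of the window. Over the 34 starts of the set, of which those of 1 gene can overlap, TATA letters were found in 6 (17.6%), AP-1 letters in 3 (8.82%), SMAD letters in 19 (55.9%), GC letters in 20 (58.8%) and CCAAT letters in 9 (26.5%). Of the 11 genes in the table that rose by at least 2-fold in clip kidneys, 8 held the SMAD letters, 7 the GC letters, 5 the CCAAT letters, 3 the TATA letters and 0 the AP-1 letters. Over all 24 genes of the set in the table the counts were 15 for SMAD, 16 for GC, 9 for CCAAT, 5 for TATA and 3 for AP-1. A gene counted if any of its starts held the letters, so these counts cannot be set against the shares of single promoters. A match is a description of these letters only.

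Among fibronectin and the matricellular genes, 6 of 8 rose in clip kidneys, each by 2-fold or more, 0 fell, and the median difference was 1.42. Of all genes 21.3% rose and 27.5% fell. Fn1, which encodes fibronectin, had levels of 1.03, 1.08 and 1.02 in clip kidneys, -0.29, -0.71 and -0.50 in release kidneys, and -1.45, -1.69 and -1.36 in sham 1, sham 2 and the untreated mouse. The arms did not overlap, and the 3 clip values lay within a narrow band (SD 0.03). Clip minus control was 2.54 ± 0.13, or 5.82-fold higher (limma, adjusted p = 4.2e-06), and 3.71-fold with normexp. Release minus control was 1.0 ± 0.13, or 2.00-fold higher (adjusted p = 0.021), and release minus clip was -1.54 ± 0.13 (adjusted p = 5.3e-05). A second Fn1 probe gave 2.17 ± 0.16 for clip and 0.88 ± 0.16 for release minus control, in the same directions.

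Tnc encodes tenascin-C, a matricellular protein of remodelling tissue. Its levels were -0.67, -0.69 and -1.44 in clip, -2.46, -2.25 and -1.74 in release, and -3.33, -3.88 and -3.33 in control kidneys. The 3 arms did not overlap, and on the third slide, which holds clip 3 and release 3, release minus clip was -0.30, against -1.78 and -1.57 on the others. The difference of clip minus control came to 2.58 ± 0.27, a 5.99-fold rise (limma, adjusted p = 1.1e-04), and 2.64-fold with normexp. Release minus control was 1.37 ± 0.27, or 2.58-fold, with an adjusted p of 0.049 that did not hold with normexp (difference 0.53), with slide as a block (0.056) or with sham mice alone as control (0.066). Release minus clip was -1.21 (adjusted p = 0.0076).

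Postn encodes periostin, a secreted protein that binds collagen and integrins. It had levels of 0.35, 0.35 and -0.18 in clip, -1.06, -1.14 and -0.60 in release, and -2.10, -2.67 and -1.51 in control kidneys. Each arm stood clear of the next, though the control arrays spread over more than a unit, with the untreated mouse highest. In clip kidneys the level exceeded control by 2.26 ± 0.30, or 4.80-fold (limma, adjusted p = 3.4e-04), and 2.95-fold with normexp. The release difference of 1.16 ± 0.30 did not pass the test (adjusted p = 0.081).

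Thbs1 and Thbs2 encode thrombospondins, secreted proteins that bind cells and matrix, and Thbs1 is known to activate latent TGF-beta. Thbs1 had levels of -1.71, -1.88 and -1.75 in clip, -3.01, -3.20 and -2.49 in release, and -2.86, -3.25 and -2.51 in control kidneys. Clip arrays were all higher, and release and control arrays overlapped. The gene was 2.13-fold higher in clip than in control (1.09 ± 0.22; limma, adjusted p = 0.0038), and release minus control was -0.03 ± 0.22. Its other usable probes, which were dimmer, gave 0.82 ± 0.34 and 0.98 ± 0.37 for clip minus control. Neither passed (limma, adjusted p over probes = 0.077 and 0.058). Their release minus control was 0.21 ± 0.34 and 0.72 ± 0.37, and neither passed. Thbs2 had levels of -1.24, -1.15 and -1.74 in clip, -2.11, -2.14 and -1.69 in release, and -2.84, -3.40 and -2.58 in control kidneys. Here release arrays overlapped with clip and lay above control. Relative to control, the clip arm differed by 1.56 ± 0.24 (adjusted p = 8.9e-04; 0.96 with normexp) and release minus control 0.96 ± 0.24 (adjusted p = 0.079).

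Sparc encodes osteonectin, a collagen-binding protein. It had levels of 5.92, 5.73 and 5.59 in clip, 4.89, 4.97 and 4.78 in release, and 4.52, 4.30 and 4.58 in control kidneys. The arms did not overlap. The clip difference from control was 1.28 ± 0.12, or 2.43-fold (limma, adjusted p = 6.1e-05), and release minus control 0.41 ± 0.12 (adjusted p = 0.11). Its close relative Sparcl1 differed by 0.01 ± 0.12 between clip and control and was 0.38 ± 0.12 higher in release than in clip kidneys (adjusted p = 0.033), a call that normexp, quantile normalization and leaving out single arrays ended. Smoc2, of the same family, did not pass in any of the 3 comparisons, with 0.50 ± 0.28 for clip and 0.65 ± 0.28 for release minus control.

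**Figure D3:**
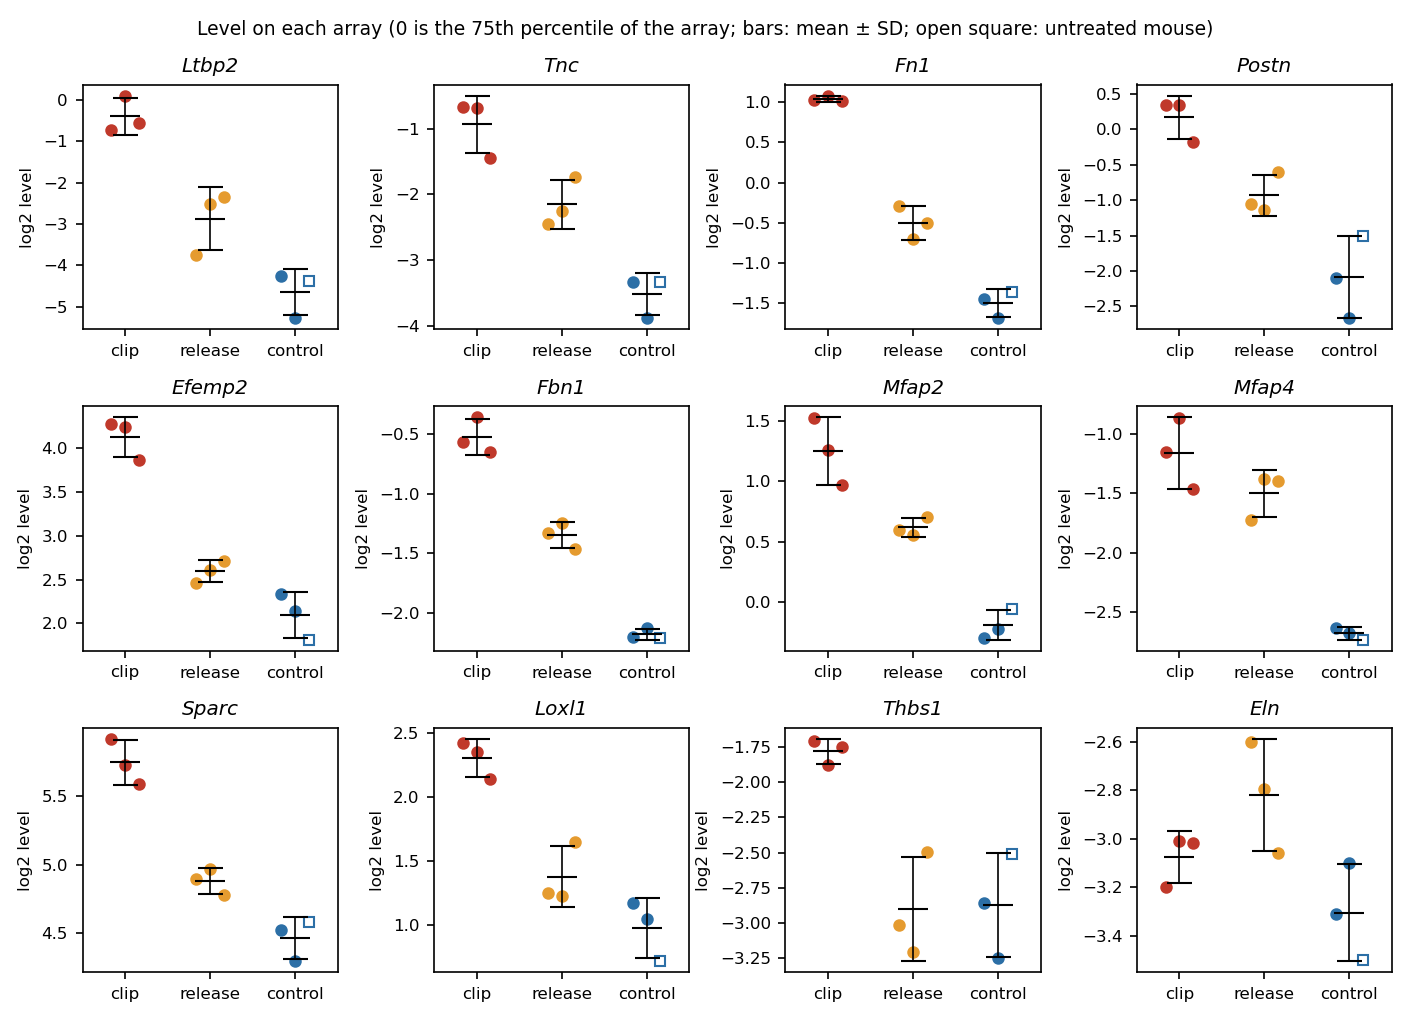
Log2 level on each array of 12 genes in clip (red), release (orange) and control (blue) kidneys, with each arm's mean and SD (n = 3); the open square is the untreated mouse and each panel has its own axis. Ltbp2, Tnc, Fn1, Postn, Efemp2, Fbn1, Mfap2, Sparc and Loxl1 step down over the 3 arms without overlap, Mfap4 overlaps between clip and release, Thbs1 overlaps between release and control, and the Eln clip points overlap with both other arms.

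Of the 11 genes for elastin, microfibrils and fibulins, 8 rose in clip kidneys, 6 of them by 2-fold or more, and 0 fell (median 1.44). Of all genes 21.3% rose and 27.5% fell. The 8 include Mfap5, which was well above background on clip arrays only. Fbn1 encodes fibrillin-1, the backbone of microfibrils. Its levels were -0.57, -0.36 and -0.65 in clip, -1.33, -1.24 and -1.46 in release, and -2.20, -2.12 and -2.21 in control kidneys. The arms were tight and did not overlap. Clip minus control was 1.65 ± 0.11, or 3.14-fold (limma, adjusted p = 9.9e-06), release minus control 0.83 ± 0.11 (adjusted p = 0.021) and release minus clip -0.82 ± 0.11 (adjusted p = 4.6e-04). A second, dim Fbn1 probe lay between -4.65 and -3.32 on 8 arrays and at 0.86 in the untreated mouse, and averaging both probes turned the release difference to -0.25 and ended all 3 calls.

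Mfap2, Mfap4 and Mfap5 encode microfibril-associated proteins. Mfap2 had levels of 1.53, 1.26 and 0.97 in clip, 0.59, 0.55 and 0.71 in release, and -0.29, -0.22 and -0.06 in control kidneys. The 3 arms did not overlap. Against control, clip kidneys differed by 1.44 ± 0.15 (limma, adjusted p = 8.5e-05), release minus control 0.81 ± 0.15 (adjusted p = 0.042) and release minus clip -0.63 (adjusted p = 0.0085).

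Mfap4 had levels of -1.16, -0.87 and -1.47 in clip, -1.73, -1.38 and -1.39 in release, and -2.63, -2.67 and -2.73 in control kidneys. Clip and release arrays overlapped, and both lay well above every control array. The difference of clip minus control came to 1.51 ± 0.16, or 2.86-fold (limma, adjusted p = 1.2e-04), and release minus control 1.18 ± 0.16, or 2.26-fold (adjusted p = 0.024). Release minus clip was -0.34 ± 0.16 and did not pass (adjusted p = 0.13). Within slides, release minus control was 0.90, 1.29 and 1.34.

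Mfap5 was well above background in the 3 clip kidneys only. Its levels were -3.58, -3.26 and -3.13 in clip, -3.79, -3.69 and -4.18 in release, and -5.49, -5.02 and -3.87 in control kidneys. The fitted fold of clip over control was 2.77 (limma, adjusted p = 0.010), but 1.83 with normexp (adjusted p = 0.038). An "at least" fold, which is not a strict bound, sets the mean of the brighter arm against the control signal or, where that was higher, the lowest signal of a probe well above background on the array. For Mfap5, Ltbp2 and Vcan it equalled the fitted fold. Their folds rest on control signal not well above background and are estimates, not minimums.

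Fibulins bind microfibrils and elastin, and Efemp1 and Efemp2 belong to this family; Efemp2 is needed for elastic fibres to form. Efemp2 had levels of 4.28, 4.24 and 3.87 in clip, 2.46, 2.61 and 2.71 in release, and 2.33, 2.14 and 1.81 in control kidneys. Clip arrays stood far above the others, and the lowest release array lay just above the highest control array. In clip kidneys the level exceeded control by 2.04 ± 0.16, or 4.10-fold (limma, adjusted p = 2.7e-05), release minus control 0.50 ± 0.16 (adjusted p = 0.14) and release minus clip -1.54 ± 0.16 (adjusted p = 1.8e-04). Efemp1 rose by 0.96 ± 0.15 in clip kidneys (adjusted p = 0.0010). Fbln1 rose by 1.0 ± 0.29 in clip kidneys (adjusted p = 0.019), a call that ended without clip 1, clip 2 or sham 2 and with the replicate block (adjusted p = 0.065), and its release difference of 1.08 ± 0.29 did not pass (adjusted p = 0.086).

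Fbln2 varied widely between control arrays, which ran over -1.04 to 0.76. Its clip difference of 1.28 ± 0.50 did not pass the test (limma, adjusted p = 0.065). Fbln5 was dim, well above background on 2 clip, 1 release and 2 control arrays, and clip minus control was -0.52 ± 0.30 (adjusted p = 0.19). Emilin1, whose product sits between elastin and microfibrils, had levels of 0.74, 0.26 and 0.51 in clip, -0.80, -0.54 and -0.26 in release, and -0.96, -1.04 and -0.96 in control kidneys. The arms did not overlap. Relative to control, the clip arm differed by 1.49 ± 0.16 (adjusted p = 1.3e-04) and release minus control 0.46 ± 0.16 (adjusted p = 0.17).

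Eln, which encodes tropoelastin itself, did not pass in any comparison. Its levels were -3.20, -3.01 and -3.02 in clip, -2.60, -2.79 and -3.06 in release, and -3.31, -3.10 and -3.50 in control kidneys. Clip and control arrays overlapped, and release arrays lay above all control arrays. Clip minus control was 0.23 ± 0.15 (limma, adjusted p = 0.23) and release minus control 0.49 ± 0.15 (adjusted p = 0.12).

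Latent TGF-beta binding proteins hold TGF-beta in the matrix, except that Ltbp2 shares their structure without binding the growth factor. Ltbp2 had levels of -0.73, 0.10 and -0.57 in clip, -3.74, -2.51 and -2.35 in release, and -4.25, -5.27 and -4.38 in control kidneys. It was well above background on 3 clip, 2 release and 0 control arrays. Every clip array lay far above every release array, and every release array above every control array. Clip minus control was fitted at 4.23 ± 0.42, or 18.8-fold (limma, adjusted p = 7.9e-05), the largest fitted difference of the 37 genes. With normexp the difference was 2.11, or 4.33-fold (adjusted p = 4.7e-05), so the 18.8-fold applies only to the scanner's own background subtraction.

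For Ltbp2, release minus control was 1.77 ± 0.42 and did not pass (limma, adjusted p = 0.067). It was 0.54 with normexp (adjusted p = 0.53), and release kidneys were 3.12-fold above control with quantile normalization. Release minus clip was -2.46 ± 0.42 (adjusted p = 0.0020), and -1.58 with normexp. The release arrays were uneven, with release 1 only 0.52 above its slide's control array and the others 2.76 and 2.03 above theirs. Ltbp1 and Ltbp3, which bind latent TGF-beta, differed by -0.07 ± 0.17 and 0.24 ± 0.13 between clip and control and did not pass. Ltbp1 was 0.50 ± 0.17 higher in release than in clip kidneys (adjusted p = 0.041), a call that most alternatives ended and that normexp turned to -0.11. A second, dimmer Ltbp3 probe rose by 0.42 ± 0.12 in clip kidneys (limma, adjusted p over probes = 0.019).

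Both lysyl oxidase relatives rose in clip kidneys. Loxl1 had levels of 2.42, 2.35 and 2.14 in clip, 1.25, 1.22 and 1.65 in release, and 1.16, 1.04 and 0.71 in control kidneys. Loxl2 had levels of 3.52, 3.39 and 3.01 in clip, 2.62, 2.61 and 2.49 in release, and 2.04, 2.05 and 2.16 in control kidneys. Neither gene had overlapping arms. Loxl1 was 2.52-fold higher in clip than in control (1.33 ± 0.16; limma, adjusted p = 2.4e-04) and Loxl2 2.33-fold (1.22 ± 0.13; adjusted p = 1.4e-04). After release the differences were 0.40 (adjusted p = 0.21) and 0.49 (adjusted p = 0.096), and both genes were lower than in clip kidneys (adjusted p = 0.0022 for Loxl1 and 0.0029 for Loxl2).

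**Figure D4:**
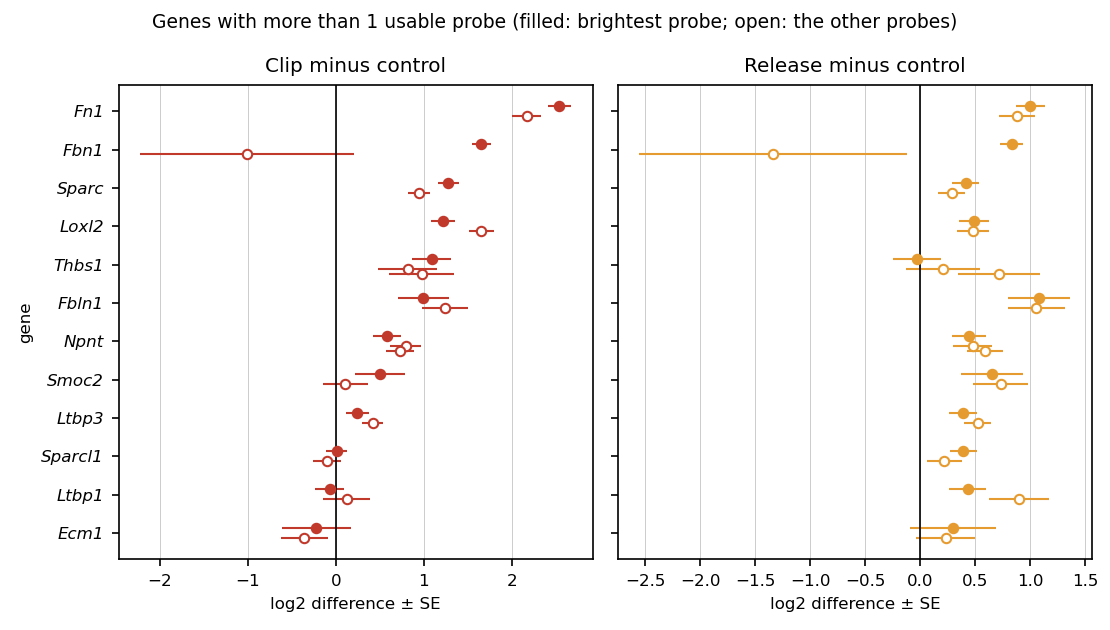
Log2 difference with its standard error for each of the 12 genes with more than 1 usable probe, clip minus control on the left and release minus control on the right; filled points are the brightest probe, which stands for the gene, and open points the others. On the left all probes of Fn1, Sparc, Loxl2, Thbs1, Fbln1, Npnt, Smoc2 and Ltbp3 lie above 0, and for Fbn1 the dim second probe lies at -1.01 with a standard error of 1.21.

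Of the 5 small leucine-rich proteoglycans, 2 rose and 2 fell in clip kidneys, where 21.3% of all genes rose and 27.5% fell. Fmod encodes fibromodulin, which binds collagen fibrils during their assembly. Its levels were -2.29, -2.39 and -2.64 in clip, -0.55, -0.40 and -1.01 in release, and -0.63, -0.75 and -1.47 in control kidneys. Clip arrays lay below all others, release and control overlapped, and the untreated mouse was the lowest control. Against control, clip kidneys differed by -1.49 ± 0.24, or 2.81-fold lower (limma, adjusted p = 0.0011), and -0.61 with normexp (adjusted p = 0.14). Release minus clip was 1.79 ± 0.24, or 3.45-fold higher (adjusted p = 6.0e-04; 0.063 with normexp), and release minus control was 0.30 ± 0.24.

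Ogn encodes osteoglycin, a keratan sulphate proteoglycan also called mimecan. It had levels of -0.11, -0.09 and 0.09 in clip, 0.90, 0.90 and 0.86 in release, and 0.58, 0.79 and 0.86 in control kidneys. Clip arrays lay below all control arrays, and the lowest release array lay just above the highest control array. The difference of clip minus control came to -0.78 ± 0.10, or 1.72-fold lower (limma, adjusted p = 3.5e-04), release minus control 0.14 ± 0.10 (adjusted p = 0.45) and release minus clip 0.93 ± 0.10 (adjusted p = 2.2e-04).

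Bgn and Dcn encode biglycan and decorin, which carry chondroitin or dermatan sulphate chains. Bgn had levels of 1.09, 0.89 and 0.18 in clip, 0.12, 0.16 and -0.53 in release, and 0.09, -0.02 and -1.03 in control kidneys. On every arm the array of the third slide was the lowest, and release overlapped with control. The difference of clip minus control came to 1.04 ± 0.35 (limma, adjusted p = 0.038), a call that ended with normexp (0.071), with sham mice alone as control (0.0996), without the filter on dim probes, without clip 1, clip 2, release 1 or release 2, and with the clip and control arrays fitted alone. Within slides it was 1.0, 0.91 and 1.21. Dcn rose by 0.85 ± 0.19 (adjusted p = 0.0059; 0.060 with normexp). Lum, which encodes lumican, differed by 0.68 ± 0.27 and did not pass (adjusted p = 0.067).

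**Figure D5:**
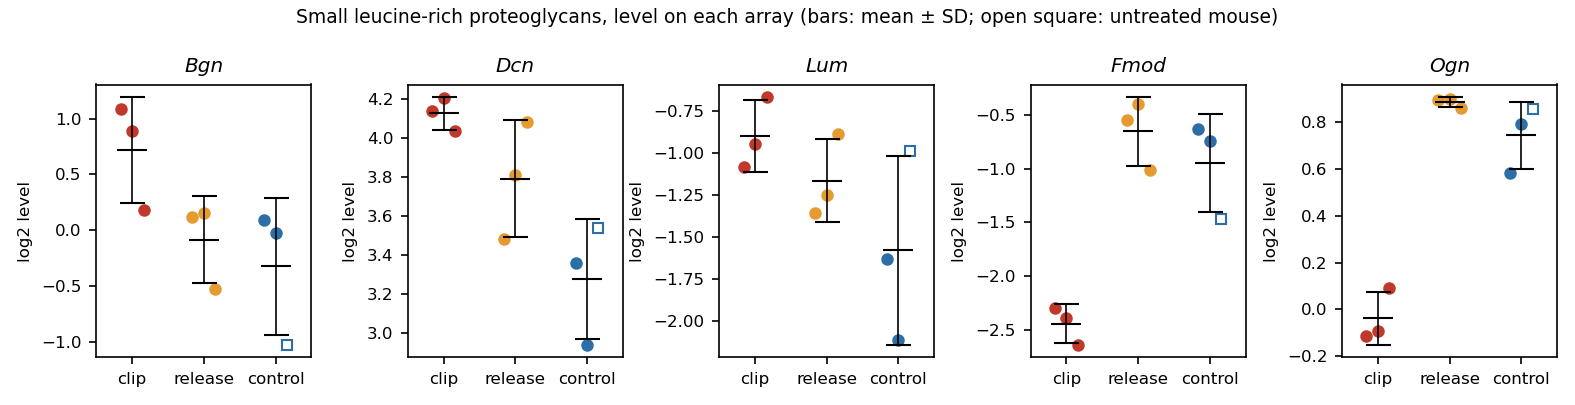
Log2 level on each array of the 5 small leucine-rich proteoglycans in clip (red), release (orange) and control (blue) kidneys, with each arm's mean and SD (n = 3); the open square is the untreated mouse and each panel has its own axis. The clip points are the highest for Bgn, overlap with release for Dcn and with both arms for Lum, and are the lowest for Fmod and Ogn.

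Vcan encodes versican, a large proteoglycan that binds hyaluronan. Its levels were -3.02, -3.15 and -3.61 in clip, -3.54, -4.74 and -4.24 in release, and -5.47, -6.13 and -5.19 in control kidneys. It was well above background on the 3 clip arrays only, and clip overlapped with release. The fitted difference of clip minus control was 2.33 ± 0.34, or 5.04-fold (limma, adjusted p = 6.1e-04), and 0.96, or 1.95-fold, with normexp. No fold is given between release and control, where it was not well above background on any array. The other 3 Vcan probes, which match another transcript of the gene, were not well above background on any of the 9 arrays.

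Of the basement membrane genes 4 of 5 rose in clip kidneys, 0 of them by 2-fold or more, and the median difference was 0.57. Of all genes 21.3% rose. Agrn encodes agrin, a heparan sulphate proteoglycan of the glomerular basement membrane, and it rose by 0.73 ± 0.08 (limma, adjusted p = 1.4e-04). Nid2, which encodes a nidogen linking laminin to collagen, rose by 0.57 ± 0.09 (adjusted p = 8.4e-04), and Npnt, an integrin ligand of the developing kidney, by 0.59 ± 0.16 (adjusted p = 0.014, but 0.0504 without sham 2 and 0.053 without clip 2). Hspg2, which encodes perlecan, rose by 0.37 ± 0.12 (adjusted p = 0.028), a call that ended with normexp (0.24), with sham mice alone as control (0.063), without the filter on dim probes, without sham 2, clip 1 or clip 2, and with the clip and control arrays fitted alone. Nid1 differed by 0.25 ± 0.11 and did not pass (adjusted p = 0.094). After release 0 of the 5 passed limma's adjusted test and 3 had an unadjusted p below 0.05, which 21.5% of all genes had, and Agrn alone was lower in release than in clip kidneys (-0.56 ± 0.08; adjusted p = 8.4e-04, but 0.14 with normexp).

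A pair of other glycoproteins completed the set. Ecm1, a secreted glycoprotein of skin and other tissues, differed by -0.22 ± 0.39 between clip and control, with 2.84 in the untreated mouse and 4.19 and 4.30 in the sham mice. Matn2 encodes a matrilin, an adaptor of filament networks. It differed by -0.15 ± 0.20 between clip and control and was 0.76 ± 0.20 higher in release than in clip kidneys (limma, adjusted p = 0.015, but 0.053 without release 2).

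Further matrix genes outside the set, also listed with earlier results of these data known, gave a background of like genes. Of 62 listed, 45 were measured, and in clip kidneys 17 rose and 15 fell, with a median difference of 0.08. Of all genes 21.3% rose and 27.5% fell. Cd44, the hyaluronan receptor, rose by 3.94 ± 0.30 (limma, adjusted p = 2.2e-05), with levels of 0.73, 1.82 and 1.01 in clip, -2.30, -1.89 and -1.57 in release, and -2.91, -2.95 and -2.41 in control kidneys. Tgfbi, a secreted integrin ligand, rose by 2.45 ± 0.14 (adjusted p = 6.6e-06). The largest falls were those of Tnn, which encodes tenascin-N, at -1.34 ± 0.41 (adjusted p = 0.025), and Matn4, a matrilin, at -1.31 ± 0.13 (adjusted p = 8.2e-05). After release Loxl4, a lysyl oxidase relative, had an "at least" fold of 2.77 over control (limma, adjusted p = 0.020). Its signal was not well above background on any control array, so this fold is an estimate, not a minimum. Svep1, a large adhesion protein, was 0.64 ± 0.12 higher than control after release (adjusted p = 0.045). Of 16 measured collagen chains 11 rose and 2 fell in clip kidneys (median 1.14), and 3 were higher than control after release (median 0.59). After release 1.46% of all genes were higher. The release calls of Loxl4, Svep1 and these collagen chains ended when the release and control arrays were fitted alone, where 0 genes were called. With normexp 1 gene of all was called after release.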

How the data were processed

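The deposited scanner files give spots as intensities; per the file headers, Feature Extraction 10.7.3.1 had subtracted background and corrected spatial trends on array design 014868. Other deposited columns (other values) flag spots as well above background, saturated or outlying. The deposited table of log2 values was not used: its 41267 rows hold values in 8142, which correlated with the named probe at a median of 0.0167, and its scale and centring are unknown (column medians -0.148 to 0.0170).

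Each array's intensities were scaled to its 75th percentile before taking log2, and repeated spots were averaged without outlier-flagged ones. Of 41174 probes, 23577 were well above background on at least 3 arrays. The brightest stood for its gene. Limma 3.58.1 (R 4.3.3) was fitted over 9 arrays in 3 arms, BH-adjusted over 17751 genes, and the code was tested on simulated data. The members and lists were chosen with earlier results of these data known. Array values are given for members that rose or fell 2-fold in clip kidneys, passed after release, or had clip and release arms outside control on opposite sides, and for the largest changes in the lists. Eln and Pdgfra were added after their values were seen.

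There were 18 alternatives, of which sham mice alone as control and leaving out the untreated array are the same fit. Normexp (offset 50) used median signals, as the files hold no mean signal column. Same-slide arrays of different arms deviated together (r = 0.161 to 0.282) and same-number arrays did not always (-0.209 to 0.270), so numbers were not taken as pairs. The main fit left slide out, and slide as a block was an alternative.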

Additional observations from a re-analysis of the deposited data

Results flagged for a closer look

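Ogn was picked out because its arms moved to opposite sides of control. All 3 clip arrays lay below all 3 control arrays and all 3 release arrays lay above them, the lowest release array by a small margin (0.863 against 0.858). Release minus clip was 0.93 on the log2 scale, and this difference passed limma's test (adjusted p = 2.2e-04, n = 3 in each arm), while release minus control was 0.14 ± 0.10 and did not pass (adjusted p = 0.45). With 3 arrays in an arm, single arrays were not tested for standing apart from their arm.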

How the results depend on the processing

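The count of members higher in clip than in control kidneys was 20 to 26 over all 18 alternatives, against 24. The count of members lower was 2 throughout except with normexp (1, Fmod lost), and no called clip difference changed sign. All genes called for clip were 8676, and 5621 with normexp. The calls after release were fragile. Members higher than control numbered 5, but 0 with normexp, 0 without the filter on dim probes, 0 with the 2 arms fitted alone, 3 with quantile normalization and 3 with the mean of each gene's probes, where Fbn1 turned to -0.25; leaving out 1 array gave 0 to 6. All genes called after release numbered 325, but 1 with normexp, 117 with quantile normalization, 12 without the filter, 1161 with slide as a block, 202 with the replicate block and 0 with the 2 arms fitted alone; leaving out 1 array gave 2 to 343. Members higher in release than in clip numbered 5, 2 with normexp, where Ltbp1 turned to -0.11, 3 with quantile normalization, and 2 to 5 when 1 array was left out. All genes called between release and clip numbered 7274, 4142 with normexp and 13597 without the filter. With the replicate block, 24 members were higher in clip, with Fbln1 lost and Smoc2 gained, and 4 in release than in control, where Tnc and Mfap2 were lost and Vcan, which was not above background in either arm, was gained. The block of slide kept all 26 clip calls. With sham mice alone as control, Postn and Mfap5, the latter not well above background in either arm, also passed after release. Probes near background, such as those of Vcan, Mfap5, Ltbp2 and Fbln5, are limited by signal over background. Causes were not tested.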

Other observations

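Some proteoglycans of the same family outside the set were also lower in clip than in control kidneys; they are named here after their values were seen. Aspn, which encodes asporin, differed by -1.20 ± 0.13 (limma, adjusted p = 1.4e-04), with levels of -4.41, -4.29 and -4.21 in clip, -2.96, -2.52 and -2.72 in release, and -3.19, -3.18 and -2.94 in control kidneys, and was well above background on 2 of the 3 clip arrays. Podn, which encodes podocan, differed by -1.04 ± 0.15 (adjusted p = 6.6e-04) and Prelp by -0.70 ± 0.15 (adjusted p = 0.0056). Ltbp4, a latent TGF-beta binding protein outside the set, differed by -0.85 ± 0.17 (adjusted p = 0.0032), with levels of 3.14, 3.06 and 2.76 in clip, 4.02, 4.24 and 3.88 in release, and 3.90, 4.06 and 3.54 in control kidneys. For Ltbp4 the clip arrays lay below all others, and release and control arrays overlapped.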
